A study of Drosophila melanogaster with 4 samples.

Results

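Broad domains of H3K27ac were described in Drosophila melanogaster larvae of the third instar. A broad domain is an enriched region of the replicate-set list that lies on 2L, 2R, 3L, 3R, 4 or X and is at least 10 kb wide. The rule found 658 domains among the 6168 enriched regions of these arms and the 6270 of the whole list. The larvae were wild-type Oregon-R (stock Oregon-R-modENCODE), and no treatment or second genotype was part of the study. Chromatin was precipitated with a rabbit polyclonal antibody from Active Motif against acetylated lysine 27 of histone H3 in 2 ChIP replicates, and 2 input samples are labelled beside them. Each ChIP replicate has its own list of enriched regions, a further list covers the replicate set, and the inputs were not analysed here. Since the animals were homogenised, the share of cells that carry the mark at a domain and the amount of mark per cell cannot be told apart. The labels leave out whether the larvae of each replicate were collected separately, so a spread between them may be technical.

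H3K27ac is placed on histone H3 by the acetyltransferase CBP, called Nejire in Drosophila, and is found at active promoters and enhancers. The same lysine can instead be methylated by the Polycomb machinery, which marks silenced genes, and a given lysine carries only one of these modifications at a time. Most acetylated sites are short. Long runs of acetylated chromatin have been described in mammals as stretch enhancers or super-enhancers, where many regulatory elements lie close together.

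The domains were chosen by their width in the replicate set, and that list covers the same ChIP replicates. Widths, scores and the way the replicates divide the domains are therefore given as descriptions, with no test. The domains made up 10.7% of the regions of the 6 arms (95% Wilson interval 9.92 to 11.5, counting error only). They held 11.2 of 30.3 Mb of listed bases, or 36.9%, and 9.28% of the length of the arms. The median domain was 14603 bp wide, with quartiles of 11874 and 19817 bp. Most lay close to the minimum, with 498 domains of 10 to 20 kb, 160 of at least 20 kb, 40 of at least 30 kb and 11 of at least 40 kb.

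Around the minimum of 10 kb the widths ran on without a step. Just above it lay domains on 2R from 15028372 to 15038374 (10003 bp), on 2R from 5070324 to 5080372 (10049 bp) and on 3R from 17092968 to 17103018 (10051 bp). The widest regions just below it lay on 3R from 18964950 to 18974946 (9997 bp), on 2L from 12364266 to 12374252 (9987 bp) and on X from 20993074 to 21003058 (9985 bp). All coordinates are on FlyBase release 5.

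Each region carries 1 score, the authors' own value on a log2 scale, so a difference of 1 is a factor of 2. The domains scored from 0.44 to 2.59, a range of 4.44-fold, with a median of 1.37 and quartiles of 1.15 and 1.64. The 1171 regions of 5 to 10 kb had a median score of 1.08, and the domains lay 0.29 above them, or 1.23-fold. All but 4 domains scored above the median of the regions of the 6 arms (0.62), and 539 scored above the upper quartile (1.07). Breadth and height went together but were not the same order. Of the 100 highest-scoring regions of the arms, 54 were domains, which made up 10.7% of all regions, and the others were narrower. Across the 6168 regions, width and score had a Spearman rho of 0.82, and within the 658 domains the rho was 0.29. These are descriptions across regions that share the same libraries. The median score rose with width, from 1.28 in the 177 domains of 10 to 12 kb to 1.5 in the 120 of 20 to 30 kb and 1.64 in the 40 of at least 30 kb. The lowest score rose as well, from 0.44 to 1.09 between the narrowest and the widest of these classes.

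**Figure D1:**
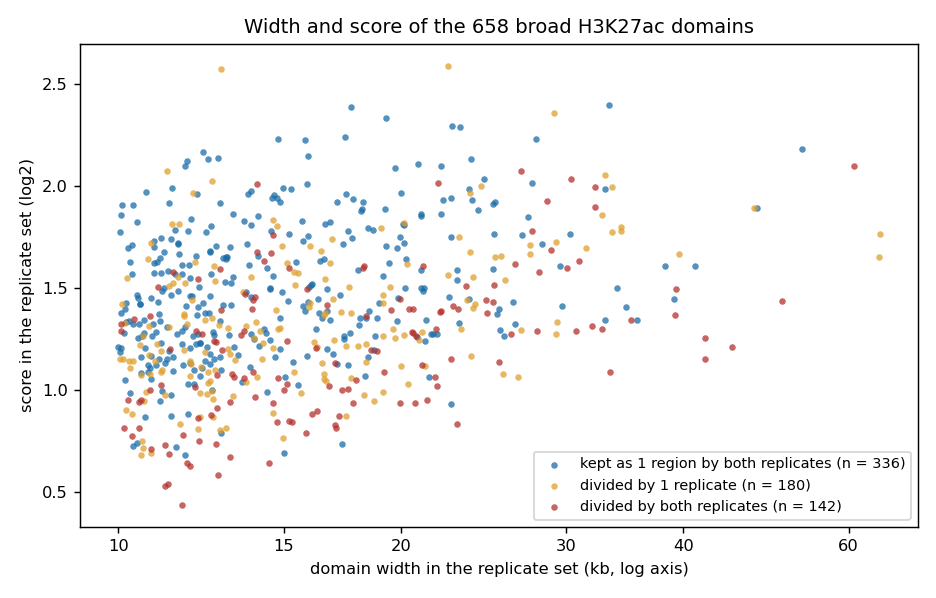
Each point is 1 of the 658 domains, by its width in kb (log axis) and its score in the replicate set (log2), coloured by whether the replicates list it as 1 region. Scores run from 0.44 to 2.59. Median scores are 1.24 for the 142 domains that both replicates divide and 1.46 for the 336 that both list as 1 region.

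The highest-scoring domains were of very different widths. The highest score, 2.59, belonged to a domain of 22.4 kb on 3R from 27416192 to 27438632, with 2.83 in replicate 1 and a base-weighted mean of 2.27 in replicate 2. The next, 2.57, was on 3R from 7578184 to 7591044, in a domain of only 12.9 kb (2.57 and 2.55 in the replicates). It was followed by a domain of 33.3 kb on X (6741474 to 6774794, score 2.40), one of 17.7 kb on 3L (16029706 to 16047408, score 2.39) and another X domain of 29.1 kb (5772358 to 5801450, score 2.36). The 5 lowest scores lay instead in domains of 11.2 to 12.8 kb. Those on 3R ran from 489182 to 500870 (0.44) and from 24386256 to 24397558 (0.54), and that on 3L from 10315378 to 10326592 (0.53). On X they ran from 15503460 to 15516246 (0.58) and from 7502256 to 7514188 (0.63). All 5 were listed in several pieces by both replicates.

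Scores of a domain differed little between the replicates. The base-weighted score was 1.45 at the median in replicate 1 and 1.36 at that of replicate 2, or 1.41 ± 0.06 (SD, n = 2). Replicate 1 exceeded replicate 2 by a median of 0.08 over the domains, and the absolute difference had a median of 0.10. It was over 0.5 in 2 domains, which were the top-scoring one on 3R and one on 3R from 8326850 to 8337216 (1.43 and 0.92), both singled out after their values were seen. The Spearman rho of the replicate scores was 0.94 over the 658 domains. The score of the replicate set lay below that of replicate 1 in 581 domains and below that of replicate 2 in 308. These counts compare unlike bases. The set gives 1 score for the whole domain, and the replicate scores leave out domain bases outside the replicate's regions.

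Domains were unevenly shared among the chromosomes. The X held 154 domains, or 6.87 per Mb, followed by 2R with 130 (6.15 per Mb), 3R with 156 (5.59 per Mb), 3L with 121 (4.93 per Mb) and 2L with 96 (4.17 per Mb). In the replicates' own lists, regions of at least 10 kb numbered 5.57 per Mb on X and 5.34 on 2R in replicate 1, and 4.50 and 4.54 in replicate 2, so the order of these arms turned between the replicates. Of the X regions in the set 14.6% were domains (Wilson interval 12.6 to 16.9), beside 9.85% (9.07 to 10.7) of the regions on the autosomal arms. On the X, 45.9% of the listed bases lay in domains, beside 34.7% on the autosomal arms. As a share of regions, those of at least 10 kb in the replicates' own lists made up 13.7% of the X regions in replicate 1 and 10.6% in replicate 2, and 9.43% and 8.30% of the autosomal ones. Both replicates thus put the X above the autosomes, by unequal amounts, with means of 12.2% ± 2.17 and 8.86% ± 0.797 (SD, n = 2). On 2R the same share was 10.2% ± 1.02 (SD, n = 2), which lies between them. Median scores of domains lay within 1.30 (3L) to 1.42 (2R) on the large arms, with 1.40 on X.

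Chromosome 4, a small chromosome rich in heterochromatin, held a single domain among 74 regions (1.35%, Wilson interval 0.239 to 7.27). It lay from 148216 to 158678, was 10.5 kb wide and scored 1.82 in the set. Both replicates listed it as 1 region, with scores of 1.82 and 1.85, and covered 99.3% ± 0.027 of it (SD, n = 2).

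Neighbouring domains were separated by gaps that spanned several orders of magnitude. The 652 gaps had a median of 84.3 kb, quartiles of 21.6 and 215 kb, and ran from 35 bp to 1839 kb. Their SD divided by their mean was 1.27, less than the 2.01 of the gaps between neighbouring regions of any width. Between neighbouring domains there lay a median of 5 narrower regions and at most 62, and in 96 pairs (14.7%) there was none. Per arm, the median gap was shortest on X (77.3 kb), followed by 2R (80.9 kb), 3L (82.5 kb) and 2L (90.4 kb), and longest on 3R (125 kb). On 2L the spread was widest, with an upper quartile of 319 kb and an SD over mean of 1.40. The 3 longest stretches without a domain were a stretch of 1839 kb on 2L (14410231 to 16249111) and stretches of 1203 and 1053 kb on 3L (5576019 to 6779215, and 6789749 to 7842679). They were not empty of the mark, since they held 49, 59 and 62 narrower regions. The last pair of stretches is parted by a single domain.

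**Figure D2:**
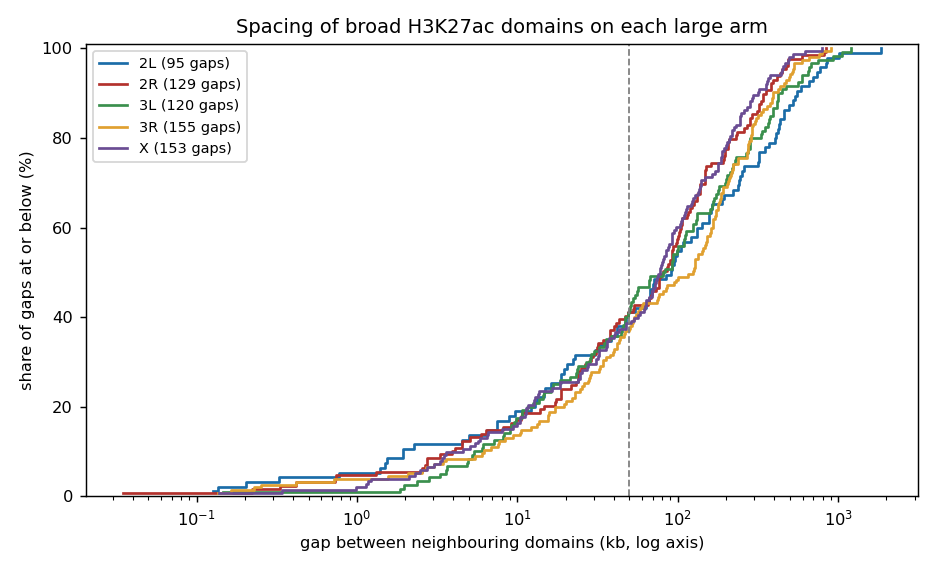
Cumulative share (%) of the gaps between neighbouring domains against gap width in kb (log axis), for each large arm, with a dashed line at 50 kb. The curves run close together below 50 kb and part above it, where 2L reaches 1839 kb and X has the shortest median, 77.3 kb.

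A domain often had another domain nearby. Within 50 kb, edge to edge, 416 of 658 domains (63.2%, Wilson interval 59.5 to 66.8) had another domain, where the share over all regions of the 6 arms was 54.1%. Among regions of 5 to 10 kb the share was 56.7%, and among those under 2 kb 52.1%. Shares within 20 kb were 42.2% for domains and 34.3% for regions of 5 to 10 kb, and within 100 kb 79.2% and 74.0%. The nearest listed region of any width lay at a median of 1414 bp from a domain, 1585 bp from a region of 5 to 10 kb and 2004 bp from a region under 2 kb. Of the 1315 places directly next to a domain, 192 (14.6%) were held by another domain, as against 11.3% of the 2341 places next to a region of 5 to 10 kb.

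The share of domains with another within 50 kb was similar on the large arms, while that of narrower regions was not. It ran from 62.2% (3R) to 64.6% (2L) for domains. For narrower regions it was 42.5% on 2L, 49.0% on 3L, 56.3% on 3R and 56.8% on 2R, all below the domains of the same arm. On X the order was turned, with 64.3% of the narrower regions and 62.3% of the domains. In the lists of single replicates, 53.9% of the regions of at least 10 kb and 48.9% of the narrower ones had such a neighbour in replicate 1, and 52.0% and 42.8% in replicate 2. Distances within an arm are not independent of each other, and none of these differences was tested.

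Linking domains whose gap was at most 50 kb gave 242 single domains, 95 pairs and 62 clusters of 3 or more. The clusters held 226 domains, or 34.3%, and had a median span of 94.0 kb, from 47.7 to 264 kb, of which domains filled a median of 56.8%. The X held 17 clusters with 56 domains, 2R 14 with 51, 3R 12 with 43, 3L 10 with 42 and 2L 9 with 34. The largest 3 held 7 domains each. One lay on 2R from 17358314 to 17609422, with scores of 1.00 to 1.78 and 13 narrower regions between its domains. Another lay near the start of 2L, from 65462 to 310576, with scores of 0.81 to 2.11. The densest of them was on 3L from 11202104 to 11384658, where domains of 12.6 to 30.1 kb filled 70.8% of 183 kb and only 4 narrower regions lay between. Of the 9 clusters of 5 or more domains, 4 were on 3L and 1 was on X.

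Clustered domains resembled the others in size and score. The median width was 14.8 kb for single domains, 14.2 kb in pairs and 14.6 kb in clusters of 3 or more. The median score was 1.34, 1.34 and 1.40, with overlapping quartiles (1.13 to 1.67 for single domains and 1.17 to 1.64 in clusters).

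At a coarser scale, windows of 500 kb held from 0 to 9 domains, with a mean of 2.73 ± 1.99 (SD over 241 windows) and a median of 2. The variance was 1.46 times the mean. No domain had its centre in 29 windows, while 25 windows with at least 6 domains held 165 of them. The windows with 9 were the first of 2L (1 to 500000) and one of 3L (11000001 to 11500000). Toward the ends of the arm sequences the count differed by side. The first 1 Mb held 12 domains on 2L and 14 on 3L, and the last 1 Mb of these arms held none. On 2R the first 1 Mb held none and the last 8. By the usual orientation of the maps, the side without domains is the one nearer the centromere on these 3 arms. On the other large arms both ends held domains. On 3R, where the first bases are the side nearer the centromere, the sides held 10 and 5 domains, and on X, where the last bases are, 4 and 1. On 3R the first domain began at base 2 of the sequence.

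The replicates were next compared with each domain of the set. Every domain was met by at least 1 region in each replicate, and so were nearly all regions of 5 to 10 kb, where none of 1171 was missed by replicate 1 and 2 were missed by replicate 2. Of the regions under 2 kb, 61.4% (replicate 1) and 76.0% (replicate 2) were met by none. Replicate 1 listed 466 of 658 domains as a single region (70.8%), where the share over all regions of the arms was 75%. Replicate 2 did so for 386 (58.7%), with 68.8% over all regions. These shares over all regions count those that a replicate missed as not kept. Of the regions of 5 to 10 kb, replicate 1 kept 86.8% as 1 region and replicate 2 kept 82.7%. For the domains, the mean over the replicates was 64.7% ± 8.60 (SD, n = 2). Replicate 1 divided 192 domains (29.2%, as against 6.32% of all regions), of which 156 were in 2 pieces, 30 in 3 and 6 in 4. Replicate 2 divided 272 (41.3%, as against 8.41% of all regions), with 198 in 2 pieces, 62 in 3, 11 in 4 and 1 in 5. In all, 892 regions of replicate 1 and 1017 of replicate 2 lay on the domains.

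Both replicates kept 336 domains as 1 region (51.1%), where they did so for 61.2% of all regions, counting missed regions as not kept. Both divided 142 domains (21.6%), against 3.63% of all regions. Replicate 2 alone divided 130 and replicate 1 alone 50. Divided domains scored lower and were somewhat wider. The domains kept by both had a median score of 1.46 and a median width of 13.8 kb, and those divided by both 1.24 and 16.2 kb. Among the 86 domains that scored below 1, 19.8% were kept as 1 region by both replicates, although their median width was 12.6 kb. Among the 243 that scored at least 1.5, with a median width of 16.1 kb, 64.2% were kept as 1 region by both. Such a domain was not always covered to its edges. The one on 3R from 12666240 to 12678006 was covered to 63.4% in replicate 1 and 71.9% in replicate 2.

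Wider regions were divided more often, and the lists allow little division of narrow ones, because those of the replicates hold no region under 1301 bp. Replicate 1 divided 20.9% of the domains of 10 to 12 kb and 31.0% of those of 12 to 15 kb. It divided 28.6% of those of 15 to 20 kb and 47.5% of those of at least 30 kb, so the rise was not steady. In replicate 2 these shares were 32.8%, 40.2%, 40.8% and 65.0%. Counted per length, the order was different. Replicate 1 had 2.31 breaks per 100 kb in domains of 10 to 12 kb and 1.55 in those of at least 30 kb, and replicate 2 had 3.85 and 2.20.

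**Figure D3:**
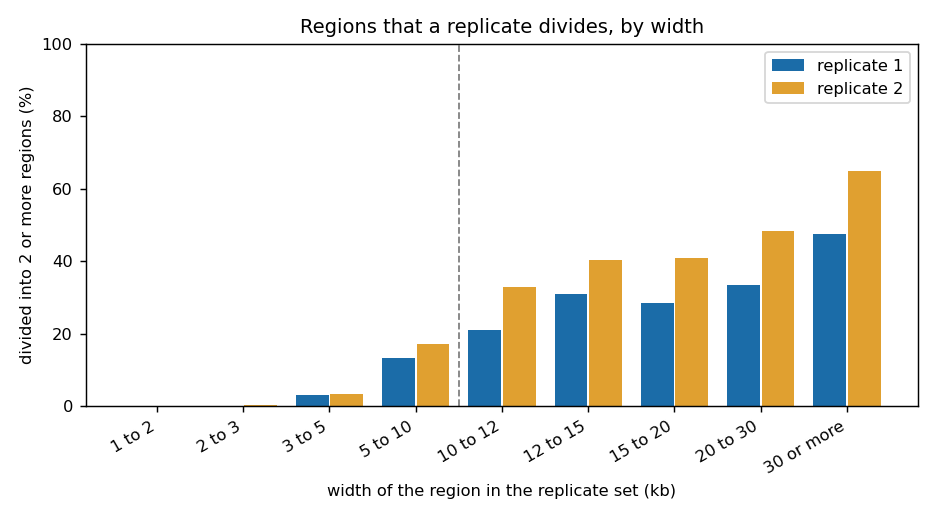
Bars give the share (%) of replicate-set regions that replicate 1 (blue) and replicate 2 (orange) list as 2 or more regions, by width in kb, with a dashed line at 10 kb. The share is higher in replicate 2 for each class from 2 kb up, and reaches 47.5% and 65.0% in the 40 domains of at least 30 kb.

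Division took little from the bases of a domain. The regions of replicate 1 covered a median of 97.5% of a domain and those of replicate 2 94.6%, which is 96.0% ± 2.08 (SD, n = 2). At least 90% was covered by both replicates in 451 domains (68.5%, as against 33.6% of all regions). The share over all regions also counts regions that a replicate missed, among them most of those under 2 kb. Regions of 5 to 10 kb came close to the domains, with median covered shares of 95.7% (replicate 1) and 91.8% (replicate 2). High coverage is therefore not shown to be particular to domains. At the lower end, 5% of the domains were covered to less than 83.0% in replicate 1 and 77.1% in replicate 2. Replicate 1 covered more of a domain in 469 cases and replicate 2 in 189. The covered shares of the replicates had a Spearman rho of 0.33 over the domains. Most of what was missing lay at the ends. Of 475 kb of domain bases outside the regions of replicate 1, 72.1% lay at the outer edges, and of 806 kb in replicate 2, 68.9%. The outer edge of the replicate regions was typically inside that of the domain, by a median of 75 bp for replicate 1 and 185 bp for replicate 2. The start reached beyond the domain in 141 and 39 cases and the end in 140 and 37.

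**Figure D4:**
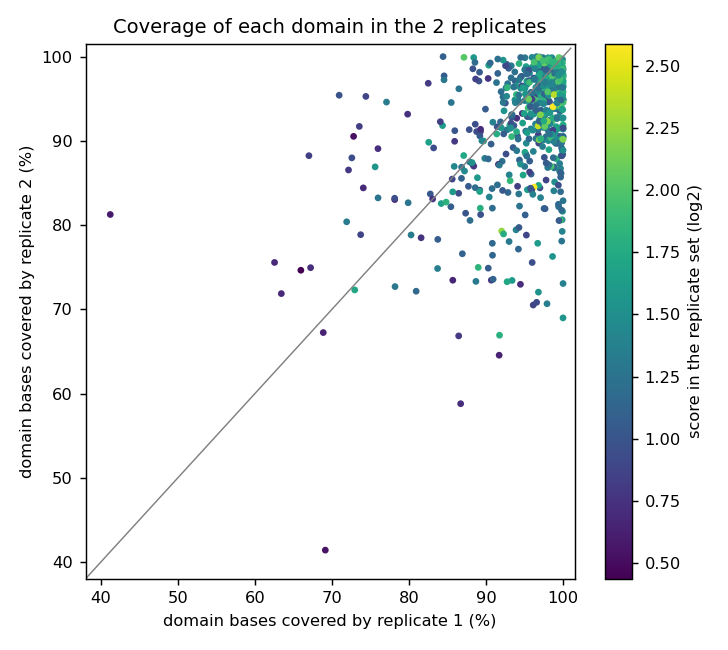
Each point is a domain, by the share (%) of its bases inside regions of replicate 1 and of replicate 2, coloured by score (log2), with a line of equal shares. Most points sit above 90% in both, and the points below 80% in both replicates, 9 in number, include the lowest-scoring domain of all (0.44).

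Few domains were poorly covered. Coverage was lowest on average on 3R from 24386256 to 24397558, where replicate 1 had 2 regions over 69.1% of 11.3 kb and replicate 2 had 2 over 41.4%. On X from 15503460 to 15516246, replicate 1 covered 41.2% with 2 regions and replicate 2 covered 81.3% with 3, the greatest disagreement among the named domains. These were also among the 5 lowest scores. The domain on 3R from 12666240 to 12678006 was listed as 1 region in each replicate, but of 7.46 and 8.46 kb rather than 11.8 kb, and so was covered to 63.4% and 71.9%. The 2 others of the lowest 5 lay on 3R from 5858284 to 5870116 (68.1% ± 1.15) and on X from 4499358 to 4509918 (69.1% ± 9.21; SD, n = 2).

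A break, the stretch between neighbouring pieces of a domain, was usually short. Replicate 1 had 234 breaks with a median of 336 bp and replicate 2 had 359 with a median of 448 bp. They ran from 4 to 4149 bp and from 1 to 5917 bp, and 85 and 93 of them were at most 200 bp wide. Breaks of both replicates often overlapped, counted from 1 bp shared. In 110 of the 142 domains divided by both (77.5%), a break of one replicate overlapped a break of the other. Over all domains, 121 breaks of replicate 1 (51.7%) and 122 of replicate 2 (34.0%) were met in this way. No such share is given here for the 224 regions of any width divided by both, so the overlap is not shown to be particular to domains. Breaks were spread over the width, at a median of 27.9% (replicate 1) and 30.9% (replicate 2) of the domain width from the nearer edge, and 95 (40.6%) and 126 (35.1%) lay within 25% of the width from an edge.

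The pieces of a divided domain often differed in score. Across a break the score typically changed by 0.47 (replicate 1, median) or 0.46 (replicate 2, median), which is 1.39-fold and 1.38-fold. The change was over 1, a factor of 2, at 35 and 50 breaks. The widest piece also scored highest in 158 of 192 divided domains in replicate 1 (82.3%) and in 205 of 272 in replicate 2 (75.4%). It held a median of 65.4% and 59.3% of the domain width. The lowest-scoring piece had a median width of 3.43 and 3.45 kb. In many divided domains the widest piece was thus also the highest-scoring, and in others the pieces lay at nearly the same level. Width and score also went together over all regions of the arms (Spearman rho of 0.82). No such share is given here for other divided regions, so the pattern is not shown to be particular to domains. The piece scores spread by less than 0.25 in 50 of the 192 domains (26.0%) and 70 of the 272 (25.7%).

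Piece scores were unequal in both replicates in some of the domains with the most pieces, and close together in others. On 3R from 17404922 to 17426778, replicate 1 had 4 pieces and replicate 2 had 5, more than in any other domain when both are added. Their scores fell along the domain from 1.38 to 1.24, 0.62 and 0.43 in replicate 1. In replicate 2 they were 1.57, 0.54, 1.02, 0.67 and 0.52, with an additional break inside the first piece of replicate 1. A core with weak flanks was seen on 2R from 17581834 to 17609422. Its central piece, 19.4 kb wide for replicate 1 and 19.3 kb for replicate 2, scored 2.04 and 2.08, while every flanking piece scored between 0.44 and 0.54. On 2L from 6444182 to 6483448, by contrast, the score rose along the domain. The 3 pieces of replicate 1 scored 1.33, 1.43 and 1.84, and the 4 of replicate 2 scored 1.22, 1.33, 1.43 and 1.98. The domain on 3R from 16912924 to 16924654 had 4 and 4 pieces, with top scores of 1.15 and 1.07 in the last piece. With 7 pieces in all, 9 domains were tied, and those described on 2L and 2R, with another on 2R from 12011646 to 12032270 (4 and 3 pieces), came first by position. Among the others were 2 of the lowest-scoring domains, on 3R from 489182 and on 3L from 10315378. Their piece scores lay close together. On 3R they ran from 0.50 to 0.56 in replicate 1 and from 0.43 to 0.52 in replicate 2. On 3L they ran from 0.45 to 0.50 and from 0.49 to 0.68.

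**Figure D5:**
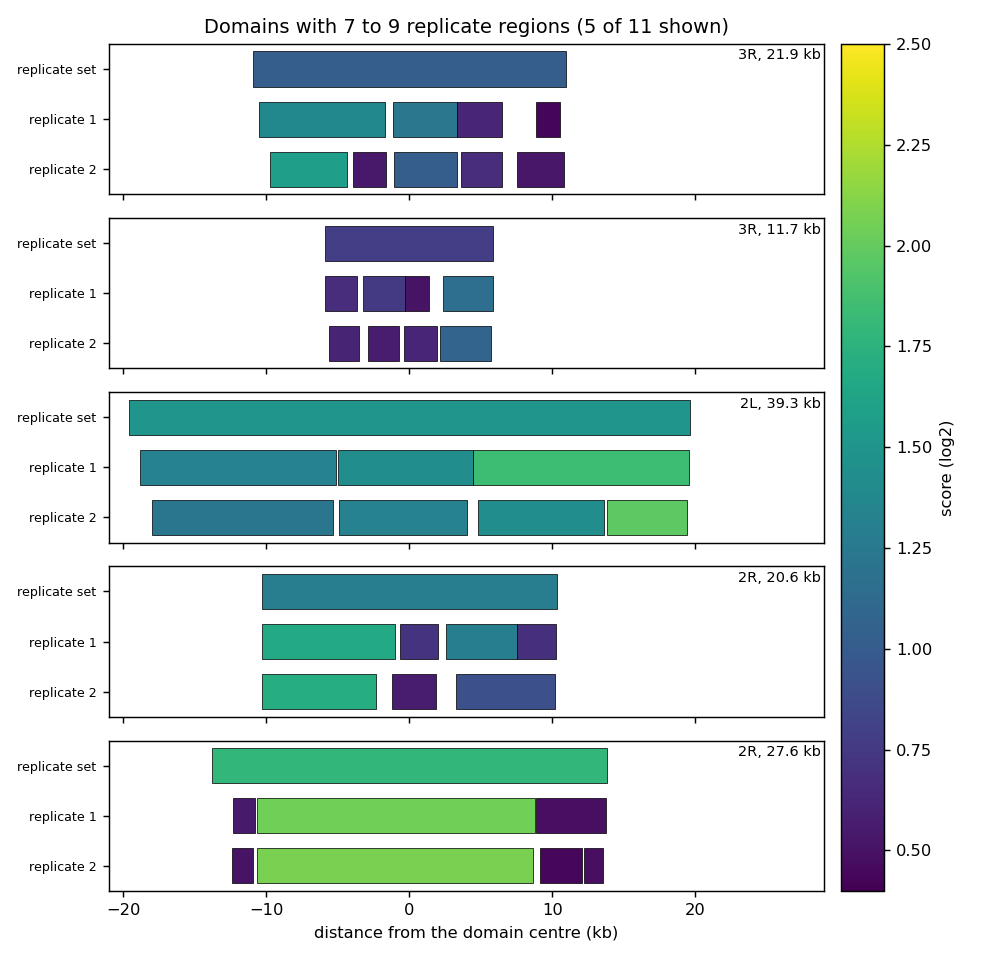
The domains with 9 and 8 replicate regions and the first 3, by position, of the 9 with 7, drawn to scale by distance from the domain centre in kb, with the replicate set above, replicate 1 below it and replicate 2 at the bottom, and each region coloured by score (log2). The last panel shows the 2R domain in which a central piece scoring 2.04 and 2.08 is flanked by pieces of 0.44 to 0.54.

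Among the 10 widest domains, 2 were kept as 1 region by both replicates. These were the X domain from 12605346 to 12658924 (53.6 kb, score 2.18) and the 2R domain from 6400846 to 6448796 (48.0 kb, score 1.89), covered to 95.1% ± 2.82 and 99.4% ± 0.226 (SD, n = 2). The widest domain, on 2R from 3607030 to 3671906 (64.9 kb, score 1.76), was 1 region in replicate 1 and 3 in replicate 2, which scored 0.76, 1.13 and 1.95. The second, on 2L from 12455056 to 12519756 (64.7 kb, score 1.65), was 2 regions in replicate 1, with similar scores of 1.75 and 1.60, and 1 in replicate 2. On 3R from 12025868 to 12086664 (60.8 kb, score 2.10), both replicates cut off a first piece, of 3.63 kb scoring 0.84 in replicate 1 and of 3.67 kb scoring 0.98 in replicate 2. The remaining 56.3 and 56.4 kb scored 2.18 and 2.17.

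Of the remaining 5 among the 10 widest, all but the one on X had lower scores than those above. On 2R from 7513018 to 7564030 (51.0 kb, score 1.43) the replicates listed 3 and 2 regions, and both gave the last piece a low score, 0.63 and 0.57. On 3L from 2795798 to 2840866 (45.1 kb, score 1.21) they listed 4 and 2, with coverage of 88.1% ± 4.74, the lowest of the 10. The domain on X from 6861576 to 6909186 (47.6 kb, score 1.89) had 1 and 2 regions, that on 3R from 898256 to 940426 (42.2 kb, score 1.15) 2 and 3, and that on 2R from 12687882 to 12730036 (42.2 kb, score 1.25) 2 and 2.

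Some neighbouring domains nearly touched. In 21 pairs the gap in the set was at most 1000 bp, with a median of 253 bp, and joining these pairs would leave 637 domains. No region of either replicate overlapped more than 1 domain. In the same 21 places replicate 1 left a median gap of 853 bp and replicate 2 of 1007 bp, and it was wider than in the set in 19 and 20 pairs. One of the pairs begins with the second widest domain, which ends 203 bp before the next domain on 2L.

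Seen from the replicates, breadth was kept in most domains. A single region of at least 10 kb lay on 530 domains in replicate 1 (80.5%) and on 453 in replicate 2 (68.8%), which is 74.7% ± 8.27 (SD, n = 2). Both replicates had one on 422 domains (64.1%) and neither had one on 97. The 97 had a median width of 11.4 kb and a median score of 1.06, and the widest was 21.9 kb. In the other direction, 8 of the 551 regions of at least 10 kb in replicate 1 lay outside every domain, all of them on narrower regions of the set, and none of the 467 in replicate 2 did.

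Domains on the X were divided more often than the others. Replicate 1 kept 65.6% of the X domains and 72.4% of the autosomal ones as 1 region, and replicate 2 kept 48.1% and 61.9%. Their median coverage was 96.9% and 97.6% in replicate 1, and 92.3% and 94.9% in replicate 2. The order was the same in both replicates, and the difference was not tested. Wider domains were divided more often, and X domains were the wider ones (median width 15141 bp on X, 14331 bp on the autosomal arms). Whether width accounts for the order was not tested. Kept shares of all X and all autosomal regions are not given, so the order is not shown to be particular to domains.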

How the data were processed

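Coordinates follow FlyBase release 5, per the file headers. Of the tools, Bowtie (0.12.7) is listed, per the submitters' processing notes, with no step assigned to it. For the peak caller, its threshold, the use of input and the making of the replicate set, no statement was found (not given in the sources used here). The deposited scores are the authors' values on a log2 scale, a base read from the values: with base 2, 34.3% to 52.7% of the differences from the most common score of a list were logs of whole-number ratios (numerator at most 1600, denominator at most 400, relative tolerance 1e-09), and at most 0.0961% with base e or 10. No read counts accompany the lists, so depth is unknown.

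Overlaps and gaps were computed in Python 3.11.15 (pandas 2.3.3, numpy 2.4.6), and 95% Wilson intervals in scipy 1.17.1. Overlap means at least 1 bp shared. The score of a divided domain is the mean of its pieces weighted by bases. Gaps run from edge to edge, and windows at an arm's end were kept if at least 50% filled. Overlap, gap and cluster counts were tested on simulated data. The domains and the rules for those named (widest, highest and lowest score, most pieces, lowest coverage, largest clusters, longest stretches, chromosome 4 and those next to the minimum) were chosen with earlier results of these data known. Regions on heterochromatic and unplaced sequences were left out. Genes and sequences under the domains were not analysed here, since the gene table used is on release 6. Alternatives covered the list, the width minimum, joining, the overlap rule and the distances.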

Additional observations from a re-analysis of the deposited data

How the results depend on the processing

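Depth is unknown, and with 2 replicates the SD rests on 1 difference. The median covered share kept its value within the spread between replicates under every alternative run. For the runs that left out 1 replicate this could not come out otherwise. There the main value is the mean of the 2 replicates and the spread is their SD. Under width minimums of 8, 12, 15 and 20 kb, the share of listed bases in domains was 45.2%, 30.5%, 22.8% and 14.5%, the median gap 51.8, 124, 217 and 397 kb, the share with another domain within 50 kb 73.7%, 49.9%, 34.5% and 26.9%, and clusters of 3 or more numbered 112, 29, 13 and 1. The median score was 1.31, 1.44 and 1.54 at 8, 15 and 20 kb. There were 939, 481, 307 and 160 domains at 8, 12, 15 and 20 kb. Both replicates divided 170, 118, 80 and 50 of these, and at 20 kb 55.3% were kept as 1 region. Joining set regions across gaps of up to 1000 bp gave 854 domains with 50.2% of bases and a median score of 1.25. The median gap was then 61.8 kb, 68.7% had a neighbour and there were 98 clusters. The higher-scoring 50% of the set gave 47.7% of bases. Distances of 20 and 100 kb gave 42.2% and 79.2% with a neighbour, and a link of 20 kb gave 31 clusters. Joining replicate regions across such gaps raised the share kept as 1 region to 90.6% and left 16 domains divided by both, and the higher-scoring 50% of each replicate gave 78.6% and 69. The cause was not tested beyond what each alternative changes by its construction.

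With 1 replicate left out and the other's own list used, there were 467 to 551 domains with 30.0% to 33.9% of bases, median scores of 1.46 to 1.51, gaps of 106 to 132 kb, 52.0% to 53.9% with a neighbour and 29 to 47 clusters. The remaining replicate alone kept 58.7% to 70.8% of the set's domains as 1 region, divided 192 to 272 and covered a median of 94.6% to 97.5%. Without replicate 1 there were 29 clusters, against 62 in the set. No paired analysis was possible because the input samples that share replicate numbers with the ChIP samples were not analysed here and no test between groups was made.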

Other observations

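The replicate set also lists 3 regions as depleted, which enter no comparison above. The one on 2R from 15016480 to 15018204 scored -0.04 and lay 10.2 kb from the nearest domain. The one on 2R from 11088398 to 11090098 scored -0.05 and lay 61.5 kb from a domain, and the one on 3L from 10455220 to 10456952 scored -0.01 and lay 86.7 kb from one.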
